A study of Mus musculus with 4 samples.

Results

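The ribosomal protein genes were taken from the deposited count table by symbol: every row starting with Rpl or Rps and a digit, together with Rplp0, Rplp1, Rplp2 and Rpsa. Kinases of the Rps6k family, Rps19bp1 and pseudogene rows named with -ps were left out. The rule took 86 of 24062 rows. Of these, 46 encode canonical proteins of the large subunit (60S), 31 canonical proteins of the small subunit (40S), and 9 are paralogues of a canonical gene. Fau, which encodes a 40S protein fused to a ubiquitin-like sequence, lies outside the rule and is given beside the members.

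RNA from mouse sciatic nerve was sequenced in 4 libraries, 1 per genotype, all from C57BL/6 mice aged 4 months. The PKO-NF1 library carried both P2RY14-/- and the Nf1 allele labelled Nf1fl/f with Dhh Cre. The NF1 library, which its source label calls a repeat, carried Nf1fl/fl with Dhh Cre; the PKO library carried P2RY14-/- alone; and the WT library carried neither. Dhh-Cre acts in the Schwann cell lineage, so other cells of an NF1 or PKO-NF1 nerve keep Nf1, whereas P2RY14-/- is given with no Cre driver. The labels give no number of animals per library.

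Ribosomal proteins assemble with ribosomal RNA into the subunits that read mRNA and join amino acids, and cells need them in near-equal amounts. Their mRNAs are short and abundant. In mammals most of them begin with a run of pyrimidines, the 5′ terminal oligopyrimidine (TOP) motif, through which mTOR signalling sets how strongly they are translated. In peripheral nerve, Schwann cells use mTOR-dependent translation while they make myelin, and loss of neurofibromin raises signalling through RAS.

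Runs of pyrimidines at the start site were more common among members than among all genes, and most members had none of 8 bases. RefSeq promoter entries (GRCm38.p6) were matched for 65 of 86 members. The window searched holds 10 bases before the annotated start and 20 bases from it on, read on the gene's own strand, and a run is an unbroken stretch of C and T on that strand. A run of 8 or more was present in 24 of 65 members (36.9%) and in 13.0% of all 27025 genes of the table, taking the best window where a gene has several. The longest run had a median of 7 bases in members and 5 in all genes. The windows below are shown because the results turn on these genes or because they hold the longest runs; capitals mark the longest run, and a match is a description of the letters and not of a working motif.
Rpl27a, chr7:109519185-109519214, + strand: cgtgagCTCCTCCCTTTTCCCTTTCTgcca
Rpl35, chr2:39005112-39005141, - strand: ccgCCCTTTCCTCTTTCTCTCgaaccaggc
Rpl13a, chr7:45128726-45128755, - strand: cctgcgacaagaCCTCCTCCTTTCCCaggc
Rpl35a, chr16:33056472-33056501, + strand: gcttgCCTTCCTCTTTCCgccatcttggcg
Rplp2, chr7:141447641-141447670, + strand: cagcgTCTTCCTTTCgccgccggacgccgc
Rps24, chr14:24490668-24490697, + strand: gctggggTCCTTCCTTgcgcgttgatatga
Rpl39, chrX:37085203-37085232, - strand: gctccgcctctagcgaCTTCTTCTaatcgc
Rplp0, chr5:115559457-115559486, + strand: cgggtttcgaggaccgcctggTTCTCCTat
Rpl4, chr9:64173377-64173406, + strand: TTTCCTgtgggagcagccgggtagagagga
Rpsa, chr9:120127756-120127785, + strand: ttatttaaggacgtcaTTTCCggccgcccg
Rpl3l, chr17:24727816-24727845, + strand: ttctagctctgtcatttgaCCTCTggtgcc
Rpl35a, Rps24 and Rpl3l have other annotated starts, and the windows printed for them are those with the longest run.

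Depth was 17771101 counts in PKO-NF1, 19064779 in NF1, 20362685 in PKO and 14111201 in WT. Levels are CPM, counts scaled to library size, after correction by trimmed mean of M values (TMM) factors. A library with 0 counts of a gene allows a level of up to 3 counts, which is between 0.152 and 0.183 CPM here. P2ry14 itself stood at 10.6 CPM in PKO-NF1, 65.3 in NF1, 10.9 in PKO and 37.6 in WT, and Nf1 at 20.5, 63.4, 41.0 and 72.8 CPM in the same libraries. The P2ry14 row thus goes with the labels. The Nf1 row in NF1 is close to WT and above PKO, so it does not bear out the NF1 label. It cannot decide against that label either, since cells outside the Schwann cell lineage keep Nf1. NF1 below means the library so labelled. The libraries also differed in tissue markers. Summed CPM of 8 skeletal muscle markers was 242 in PKO-NF1, 48561 in NF1, 87.6 in PKO and 839 in WT. Mbp, a myelin gene of Schwann cells, had 7196 CPM in PKO-NF1, 3072 in NF1, 14762 in PKO and 9286 in WT. Over 8 Schwann cell markers, the median log2 ratio was 0.18 in PKO against WT and 0.62 in PKO-NF1 against NF1. It was -1.2 in NF1 against WT and -0.58 in PKO-NF1 against PKO. Summed CPM of 5 adipocyte markers was 6501 in PKO-NF1, 1890 in NF1, 7591 in PKO and 2623 in WT, most of it from Fabp4; 2 of the 5 were at least 2-fold higher in PKO than in WT and 4 in PKO-NF1 than in NF1.

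Ribosomal protein genes took 12.2% of all counts in PKO-NF1, 7.44% in NF1, 15.7% in PKO and 4.06% in WT. The exact binomial 95% interval of the WT share ran from 4.049% to 4.069%, and the libraries are far apart on that scale. Such intervals, here and below, cover counting error only, and reads copied by PCR are not independent molecules. Summed TMM-scaled CPM was 132749 in PKO-NF1, 71932 in NF1, 179793 in PKO and 33798 in WT. The order PKO, PKO-NF1, NF1, WT held for both subunits. Large subunit genes took 6.70% of counts in PKO-NF1, 4.11% in NF1, 8.38% in PKO and 2.30% in WT, and small subunit genes 5.46%, 3.24%, 7.23% and 1.73% in the same libraries. The ratio of summed 60S to 40S CPM was 1.23 in PKO-NF1, 1.27 in NF1, 1.16 in PKO and 1.33 in WT. With the muscle list taken out of the total, the share in NF1 was 8.16%. In bulk tissue, fewer cells of a type and less RNA per cell cannot be told apart.

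**Figure D1:**
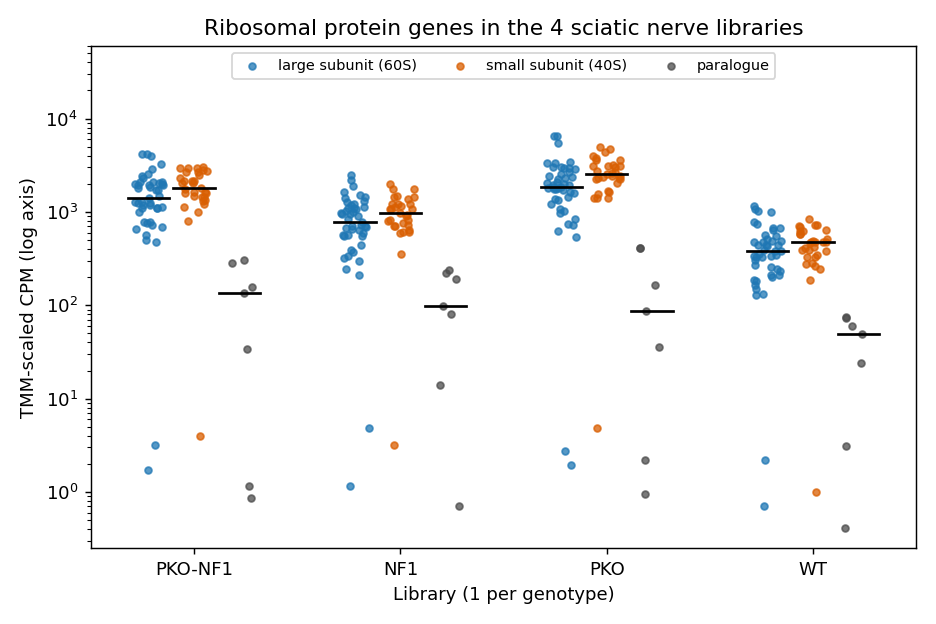
TMM-scaled CPM (log axis) of each ribosomal protein gene with a count above 0 in the 4 libraries, by class; points are genes and black lines are class medians. Class medians of canonical genes stand highest in PKO and lowest in WT, and 3 canonical genes lie below 5 CPM in every library.

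Within a library, canonical members covered a wide range of levels. For the 73 canonical genes with at least 100 CPM in a library, the median level per kilobase of transcript was 2186 CPM per kb in PKO-NF1, 1185 in NF1, 2829 in PKO and 529 in WT. The standard deviation of log2 CPM per kb across these genes was 0.80 in PKO-NF1, 0.75 in NF1, 0.97 in PKO and 0.77 in WT. The 10 most abundant members held between 24.9% and 26.5% of the members' counts in each library. On the mean of the 4 libraries, the highest levels per kb belonged to Rplp1 (an acidic stalk protein), Rpl41, Rps29, Rps14, Rps15 and Rpl32. Rplp1 had 8358 CPM per kb in PKO-NF1, 3316 in NF1, 13139 in PKO and 2142 in WT. Rps20 was lowest of the 73 per kb, at 439 CPM per kb in PKO-NF1, 217 in NF1, 692 in PKO and 103 in WT; its reference transcript is 3706 bases long, and its level before division by length was ordinary, with 382 CPM in WT.

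A few canonical rows were near 0. Rpl26 had no count in any library. Rpl30 had 28 counts in PKO-NF1, 23 in NF1, 35 in PKO and 12 in WT, Rps27 had 66, 63, 86 and 17, and Rpl34 had 52, 95, 49 and 37 in the same libraries. Their protein products are constituents of the cytosolic ribosome, whereas the next canonical row averaged 339 CPM. Stretches of 50 bases shared with the transcript of another gene made up 71.3% of the Rpl26 transcript, 76.4% of Rpl30, 98.6% of Rps27 and 50.6% of Rpl34. The other 73 canonical transcripts had a median of 60% (0 to 95.1%), and 47 of them shared 50% or more, so a high share was not particular to the low rows. How reads with several matches were counted was not stated, and its part in these low rows was not tested. Rpl14-ps1, a processed pseudogene row on chromosome 7, had 11844 counts in PKO-NF1, 6559 in NF1, 16809 in PKO and 2590 in WT, so a pseudogene row did receive reads.

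In PKO against WT nerve, nearly the whole group was higher. A gene was counted as higher or lower when its libraries were at least 2-fold apart and the 95% interval of the ratio excluded 1; with 1 library per genotype this compares libraries and is no test of the genotypes. Of 83 members that reached 1 CPM in a library, 78 were higher, beside 10% of all 14700 rows, and 1 was lower, beside 5.22%. The median log2 ratio was 2.49 (5.63-fold) over the members and -0.08 over all rows. The 40S genes had a median of 2.63 and the 60S genes 2.39.

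The highest ratios belonged to Rpl39, Rps24 and Rpl35a. Rpl39, the X-linked gene of a small protein that lines the peptide exit tunnel, had 1924 CPM in PKO and 210 CPM in WT, a log2 ratio of 3.19 (95% interval 3.14 to 3.24). Rps24, a 40S protein mutated in some patients with Diamond-Blackfan anaemia, had 4913 CPM in PKO and 583 CPM in WT (3.07, 3.04 to 3.10). Rpl35a, a 60S protein, had 1929 CPM in PKO and 233 CPM in WT (3.05, 3.0 to 3.10). In each, PKO lay far above WT relative to counting error. Rpl13a, the row with the most counts in PKO, had 6565 CPM in PKO and 1020 CPM in WT.

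The members that stood apart were Rpl3l, which was lower, and Rpl4, Rpl34, Rpl7l1 and Rps4l, which were under 2-fold apart. Rpl4, a 60S protein with a long loop in the exit tunnel, had 1735 CPM in PKO and 995 CPM in WT, a log2 ratio of 0.80 (0.77 to 0.83). Rplp0, the stalk base, had 2669 CPM in PKO and 1157 CPM in WT (1.21), while its partners on the stalk were further apart: Rplp1 had 6556 CPM in PKO and 1069 CPM in WT (2.62), and Rplp2 had 2437 CPM in PKO and 382 CPM in WT (2.67). Rpsa, a 40S protein also known as the laminin receptor, had 2379 CPM in PKO and 845 CPM in WT (1.49). The make-up of the group therefore differed between the libraries. Rplp0 ranked 1 among the members by counts in NF1 and WT and 3 in PKO-NF1, but 26 in PKO. Rpl4 ranked 9 in PKO-NF1, 4 in NF1, 53 in PKO and 4 in WT.

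**Figure D2:**
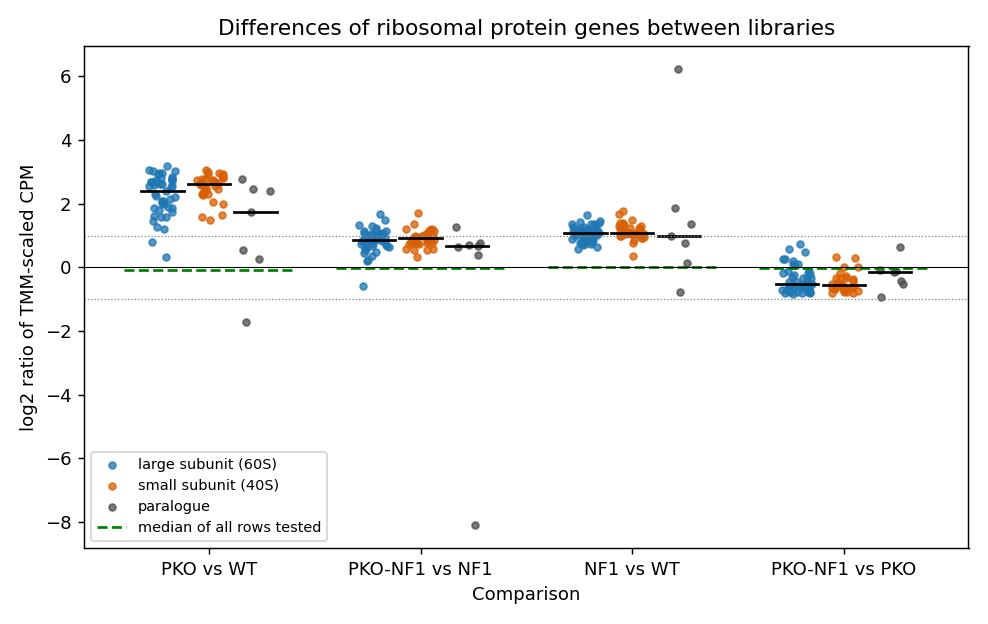
log2 ratio of TMM-scaled CPM for each tested ribosomal protein gene in 4 comparisons of single libraries, by class. Black lines are class medians, green dashed lines the medians of all rows tested and dotted lines the 2-fold bounds; the members' medians are 2.49, 0.85, 1.07 and -0.53 from left to right, and Rpl3l is the point farthest from its class in PKO-NF1 vs NF1 and in NF1 vs WT.

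With floxed Nf1 and Dhh Cre in both libraries, members were again mostly higher with P2RY14-/-, and fewer of them passed 2-fold; the difference between the pairs was not tested. In PKO-NF1 against NF1, 25 of 83 members were higher, beside 7.9% of all rows, 1 was lower, beside 13.8%, and 57 were under 2-fold apart or not separable. The median log2 ratio was 0.85 (1.80-fold) over the members and -0.01 over all rows. The count was 11 when libraries were scaled by total counts alone.

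Rps29, a small zinc-binding 40S protein, led this pair with 2675 CPM in PKO-NF1 and 824 CPM in NF1, a log2 ratio of 1.70 (1.67 to 1.73). Rpl17, a 60S protein that lines the exit tunnel, had 780 CPM in PKO-NF1 and 245 CPM in NF1 (1.67). Rpl39 followed with 1097 CPM in PKO-NF1 and 394 CPM in NF1 (1.48). At the other end, Rpl23a and Rpl7a, both 60S proteins, differed little: Rpl23a had 770 CPM in PKO-NF1 and 664 CPM in NF1 (0.21), and Rpl7a had 657 CPM in PKO-NF1 and 556 CPM in NF1 (0.24). Muscle markers move with this pair and with the next, since NF1 is in both. With TMM factors computed without the muscle list, 39 members were higher in PKO-NF1 than in NF1 and the median was 0.98, while the median of all rows moved to 0.12.

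In NF1 against WT nerve, 51 of 83 members were higher, beside 10.4% of all rows, and 0 were lower, beside 6.31%; 32 were neither. The median log2 ratio was 1.07 (2.10-fold) over the members and 0.00 over all rows. The threshold of 2-fold cuts through the middle of this distribution: the quartiles of the members were 0.91 and 1.26. Rps24 had 1980 CPM in NF1 and 583 CPM in WT, a log2 ratio of 1.76 (1.73 to 1.79), the highest of a canonical gene. Rps29 was the lowest canonical gene, with 824 CPM in NF1 and 638 CPM in WT (0.37), although it led the comparison of PKO-NF1 with NF1. Rps6, the 40S protein phosphorylated downstream of mTOR, had 1083 CPM in NF1 and 412 CPM in WT (1.40), and its total mRNA says nothing of that phosphorylation. The count depended on the scaling: 33 members were higher with TMM factors computed without the muscle list, where the median was 0.94 and that of all rows -0.13, and 25 were higher with total counts alone.

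In PKO-NF1 against PKO nerve, which differ by the Nf1 allele and Dhh Cre, 0 of 83 members were at least 2-fold higher, beside 5.2% of all rows, and 0 were lower, beside 9.7%. All members stayed within 2-fold, with a median log2 ratio of -0.53 against -0.01 over all rows. Ratios were negative for 69 members and positive for 14, and the counting interval excluded 1 for 65 of the negative and 11 of the positive. Rpl36 had 1007 CPM in PKO-NF1 and 1788 CPM in PKO (-0.83), Rps28 had 800 CPM in PKO-NF1 and 1410 CPM in PKO (-0.82), and Rpl35 had 1178 CPM in PKO-NF1 and 2074 CPM in PKO (-0.82). The 14 positive members were Rpl3, Rpl4, Rpl5, Rpl6, Rpl7, Rpl8, Rpl10, Rpl34, Rplp0 and the paralogue Rpl7l1 of the large subunit, and Rps2, Rps3a1, Rps4x and Rpsa of the small one. Rpl4 was furthest up, with 2861 CPM in PKO-NF1 and 1735 CPM in PKO (0.72), and Rplp0 had 3982 CPM in PKO-NF1 and 2669 CPM in PKO (0.58). Rpl5, which with Rpl11 holds Mdm2 when ribosome assembly stalls, had 1980 CPM in PKO-NF1 and 1655 CPM in PKO (0.26), whereas Rpl11 had 1943 CPM in PKO-NF1 and 3002 CPM in PKO (-0.63).

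Ratios of the members varied with transcript length in PKO against WT and in PKO-NF1 against PKO, less in PKO-NF1 against NF1 and hardly in NF1 against WT. Over the 73 abundant canonical genes, the Pearson correlation of the log2 ratio with log10 transcript length was -0.49 (Spearman -0.50) in PKO against WT, -0.33 (-0.38) in PKO-NF1 against NF1, 0.16 (0.10) in NF1 against WT and 0.54 (0.58) in PKO-NF1 against PKO; the points share libraries and an annotation, and genes are not replicates. In PKO against WT the median log2 ratio was 2.79 for 24 members under 600 bases, 2.41 for 32 of 600 to 1000 bases and 2.08 for 17 over 1000 bases. In PKO-NF1 against NF1 the medians of the same classes were 1.03, 0.83 and 0.85, in NF1 against WT 1.09, 1.07 and 1.07, and in PKO-NF1 against PKO -0.70, -0.50 and -0.29.

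Rows outside the group also varied with length, in patterns that were not always those of the members. In PKO against WT, 370 other rows of up to 600 bases had a median log2 ratio of 1.36, and 4034 other rows over 4000 bases one of -0.37. In PKO-NF1 against NF1 these medians were 0.49 and -0.46, and in NF1 against WT 0.73 and -0.22. In PKO-NF1 against PKO they were -0.18 and -0.33, with 0.22 for rows of 1000 to 2000 bases between them. When a smooth trend over length and GC content, fitted on the rows outside the group, was subtracted, the members' median log2 ratio was 1.45 in PKO against WT, 0.42 in PKO-NF1 against NF1, 0.59 in NF1 against WT and -0.61 in PKO-NF1 against PKO. Then 64 members were at least 2-fold higher in PKO against WT, beside 4.41% of all 14607 rows with a length. In PKO-NF1 against NF1, 5 members were higher, beside 6.06%, and in NF1 against WT 5, beside 7.23%; both shares of the members are near the background. In PKO-NF1 against PKO, 17 members were lower, beside 5.08%.

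**Figure D3:**
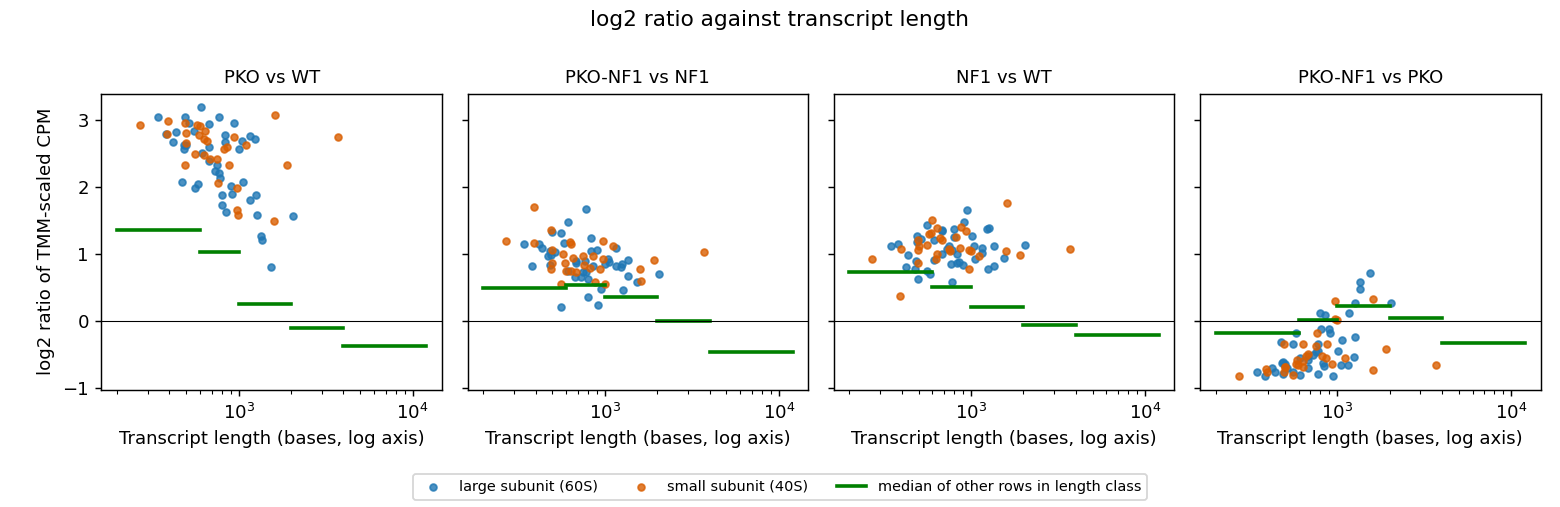
log2 ratio of TMM-scaled CPM against transcript length (bases, log axis) for the 73 abundant canonical genes in each comparison, with green lines for the medians of all other rows by length class. Shorter members sit higher in PKO against WT and lower in PKO-NF1 against PKO, and other rows of up to 600 bases lie above those over 4000 bases in each panel.

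Members with and without a pyrimidine run of 8 or more had close medians and overlapping ranges. Those without one can hold shorter runs, such as 7 bases in Rplp0, so the split does not divide TOP mRNAs from others. In PKO against WT, the 21 abundant canonical genes with a run of 8 or more had a median log2 ratio of 2.67 (1.73 to 3.19), and the 33 without had 2.57 (0.80 to 2.99). In PKO-NF1 against NF1 the medians were 0.90 with a run and 0.87 without, in NF1 against WT 1.11 and 1.06, and in PKO-NF1 against PKO -0.66 and -0.55. Long runs stood beside high and moderate ratios alike: of the 4 members with runs of 17 to 20 bases, Rpl27a and Rpl35 had log2 ratios of 2.76 and 2.96 in PKO against WT, and Rpl7a and Rpl15 had 1.89 and 1.73. The X-linked members Rpl10, Rpl36a, Rpl39 and Rps4x had log2 ratios of 1.88, 2.57, 3.19 and 1.98 in PKO against WT, which lie inside the range of the 69 autosomal genes (0.80 to 3.07) but for Rpl39.

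The paralogues behaved less alike than the canonical genes. Rpl3l replaces Rpl3 in ribosomes of heart and skeletal muscle. It had 14 counts in PKO-NF1, 4644 in NF1, 17 in PKO and 53 in WT, while Rpl3 had 40084, 25583, 31488 and 12490 in the same libraries. Rpl3l thus made up 0.0349% of both rows' counts in PKO-NF1, 15.4% in NF1 (15.0 to 15.8%), 0.0540% in PKO and 0.423% in WT. Acta1, skeletal muscle actin, was also highest in NF1 and next in WT. It had 25.5 CPM in PKO-NF1, 8973 in NF1, 4.61 in PKO and 174 in WT. Not all muscle genes had that order: Tpm1 had 389 CPM in PKO-NF1, 6340 in NF1, 283 in PKO and 322 in WT. In PKO-NF1 against PKO, 7 of 8 muscle markers were at least 2-fold higher and Rpl3l was not (-0.16, -1.29 to 0.95). Of 65 tested genes of the full muscle list, 22 were higher and 3 lower there, beside 5.2% and 9.7% of all rows. That list had a median log2 ratio of 0.61, inside the counting interval of Rpl3l, so Rpl3l was not separable from it. The log2 ratio of Rpl3l was 6.24 in NF1 against WT, -8.11 in PKO-NF1 against NF1 and -1.71 in PKO against WT.

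None of the other paralogues measured above 0 was highest in NF1. Rpl22l1, which can stand in for Rpl22, had 309 CPM in PKO-NF1, 193 in NF1, 413 in PKO and 75 in WT, and its share of both rows was 22.1% in PKO-NF1, 25.8% in NF1, 23.2% in PKO and 18.7% in WT. Rps27l, a p53 target in human cells, had 287 CPM in PKO-NF1, 220 in NF1, 413 in PKO and 60.7 in WT. With a log2 ratio of 1.86 it was the member most above WT in NF1 after Rpl3l. Its parent Rps27 was near 0, so their shares cannot be read as a switch between the genes. Rpl36al had 156 CPM in PKO-NF1, 99.3 in NF1, 167 in PKO and 49.7 in WT, and its share of Rpl36al and Rpl36a was 18.4% in PKO-NF1, 22.8% in NF1, 13.5% in PKO and 21.5% in WT. PKO thus held the lowest Rpl36al share although its Rpl36al level was the highest.

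Rpl7l1, a nucleolar relative of Rpl7, differed by less than 2-fold in each comparison, with 137 CPM in PKO-NF1, 80.4 in NF1, 87.7 in PKO and 72.9 in WT. Its share of Rpl7l1 and Rpl7 was 5.13% in PKO-NF1, 5.30% in NF1, 3.60% in PKO and 9.75% in WT. Rps4l, annotated as a transcribed processed pseudogene, had 33.7 CPM in PKO-NF1, 14 in NF1, 35.4 in PKO and 24.2 in WT, and was the member with the lowest ratio of NF1 to WT (-0.79). Rpl39l, best known from the testis, had 19 counts in PKO-NF1, 14 in NF1, 39 in PKO and 7 in WT. Rpl10l and Rps27rt had 0 counts in all 4 libraries.

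**Figure D4:**
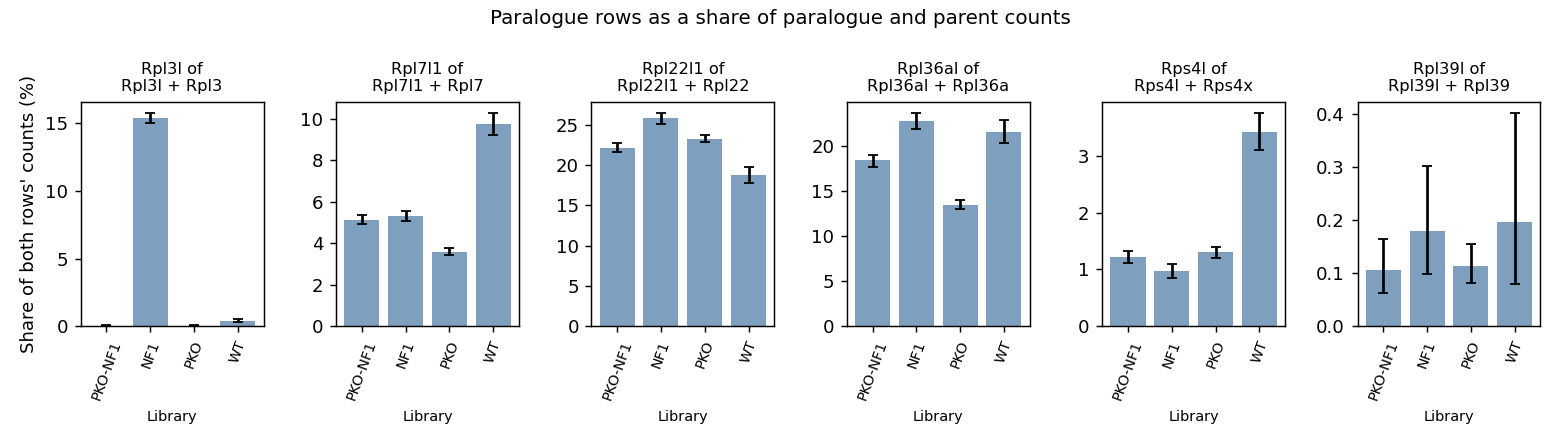
Counts of 6 paralogue rows as a percentage of paralogue plus parent counts in each library; bars are single libraries, error bars are exact 95% counting intervals, and each panel has its own axis starting at 0. Rpl3l reaches 15.4% in NF1 and stays under 1% elsewhere, while Rpl7l1 and Rps4l have their highest shares in WT.

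Genes outside the rule with the most similar pattern over the 4 libraries were sought among 6414 rows at 20 CPM or more throughout, by root mean square distance from the members' median centred log2 profile. Pfdn5, a subunit of the prefoldin chaperone, was nearest at 0.0260, with 1019 CPM in PKO-NF1, 536 in NF1, 1422 in PKO and 238 in WT. Fau was next at 0.0545, with 1581 CPM in PKO-NF1, 801 in NF1, 2332 in PKO and 384 in WT. Tbca (a tubulin folding cofactor), the long non-coding RNA AW112010, Pet100, Rpl14-ps1, Gm13826 and Anapc13 followed. The members' own median distance was 0.166. Fau thus had the order of the members.

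Other groups of translation and of short mRNAs were read beside the members, against the shares of all rows given above. Of 77 mitochondrial ribosomal protein genes, which make the separate ribosome of that organelle, 42 were at least 2-fold higher in PKO against WT (median log2 ratio 1.14), 1 in PKO-NF1 against NF1 (0.35), 29 in NF1 against WT (0.80) and 0 in PKO-NF1 against PKO (0.08). Of 50 tested subunits of the respiratory chain, chosen for short transcripts, 50 were higher in PKO against WT (2.15), 2 were higher and 1 lower in PKO-NF1 against NF1 (0.13), 45 were higher in NF1 against WT (1.65) and 0 in PKO-NF1 against PKO (-0.47). Cox4i1 of that chain had 2061 CPM in PKO and 387 CPM in WT. The respiratory genes thus had their large medians in both comparisons with WT. The members' largest medians, 2.49 and 1.07, were in the same comparisons, and their median in PKO-NF1 against NF1 was 0.85. Skeletal muscle markers were highest in NF1, and their part in these medians was not tested. Among 19 other genes with TOP mRNAs, 13 were higher in PKO against WT (1.44), 0 in PKO-NF1 against NF1 (0.59), 8 in NF1 against WT (0.96) and 2 in PKO-NF1 against PKO (0.09). That list shares genes with the elongation factors below, Eef1a1 and Eef2 among them, so the counts of the 2 lists are not separate. Of 31 proteasome genes, 13 were higher in PKO against WT (0.91), 1 in PKO-NF1 against NF1 (0.58), 2 in NF1 against WT (0.55) and 0 in PKO-NF1 against PKO (0.19).

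Genes that make ribosomes differed little. Of 34 ribosome biogenesis genes, 4 were higher in PKO against WT with a median log2 ratio of 0.03, and 0 were higher in NF1 against WT (-0.01); Ncl, nucleolin, had 208 CPM in PKO and 196 CPM in WT. Of 11 elongation factor genes, 3 were higher in PKO against WT (0.47). Eef1a1, which brings tRNA to the ribosome, had 13608 CPM in PKO-NF1, 7733 in NF1, 6747 in PKO and 4505 in WT, so unlike most members it was higher in PKO-NF1 than in PKO. Of 31 tested initiation factor genes, 8 were higher in PKO against WT (0.36), and of 14 growth control genes 0 were (-0.28). Of these 14, 3 were lower in PKO-NF1 against NF1 (-0.32), beside 13.8% of all rows. In PKO-NF1 against PKO 2 were lower (-0.27), beside 9.7%, and in NF1 against WT 0 were (-0.20). Long housekeeping genes had negative medians too. Of 16, 0 were higher and 4 lower in PKO against WT (-0.57), and 8 were lower in PKO-NF1 against PKO (-0.98).

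**Figure D5:**
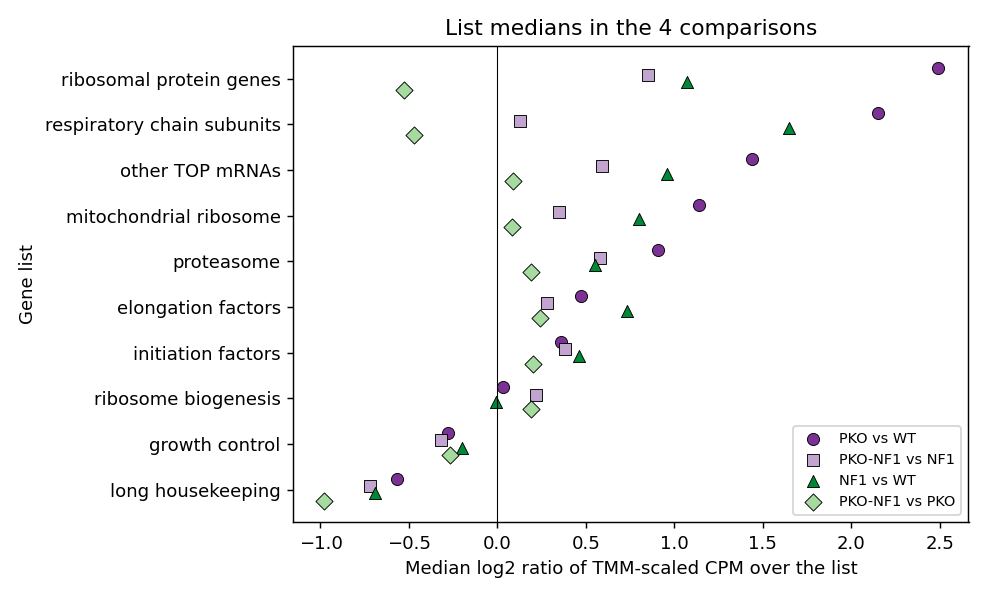
Median log2 ratio of TMM-scaled CPM over the ribosomal protein genes and 9 other gene lists in 4 comparisons of single libraries. Ribosomal protein and respiratory chain genes lie furthest right in PKO against WT, ribosome biogenesis genes lie near 0, and long housekeeping genes lie left of 0 in each comparison.

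A model with a term for each locus over all 4 libraries has 1 residual degree of freedom, the departure from additivity, and its p-values say nothing about the spread between animals. By edgeR's quasi-likelihood test over 14105 rows with Benjamini-Hochberg adjustment, 0 of 83 members passed 0.05 at the P2ry14 term, where 7 of all rows did; the smallest adjusted p of a member was 0.142 and the median log2 fold change 1.63. At unadjusted p under 0.05, 33 members were higher with P2RY14-/- and 1, Rpl3l, was lower, beside 1627 higher and 1924 lower of all 14105 rows. DESeq2's Wald test called 62 of 81 members higher at that term, and 726 of all 13596 rows in either direction. Rpl39 had a log2 fold change of 2.33 ± 0.64 (SE; edgeR adjusted p = 0.150). At the Nf1 term edgeR called 0 of 83 members, beside 0 of all 14105 rows. DESeq2 called 0 of 81 members there, beside 339 of all 13596 rows in either direction. At unadjusted p under 0.05 edgeR found 0 members, beside 2944 of all 14105 rows. The smallest edgeR adjusted p of a member was 0.274 and the median log2 fold change was 0.33.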

How the data were processed

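The authors deposited whole-number counts per gene symbol for 4 sciatic nerve libraries, used here as deposited. Per the labels' protocols, Trizol RNA went into Illumina TruSeq libraries, and per the submitters' processing notes FastQC 0.11.7, HISAT2 2.0.5, featureCounts 1.5.2 and mm10 were used. Annotation, strandedness and treatment of reads with several matches were not stated, so rows with near-identical copies are uncertain.

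Counts were scaled with edgeR 4.0.16 TMM factors (R 4.3.3); 0.922 in PKO-NF1, 1.03 in NF1, 0.873 in PKO and 1.20 in WT. Rows at 1 CPM in at least 1 library were kept. Ratios have exact conditional 95% intervals. The additive model used rows at 1 CPM in at least 2 libraries, and DESeq2 1.42.0 was its alternative. The edgeR fit was also run on simulated counts with less spread than these data, so that run cannot vouch for its calls here. Transcript lengths came from GENCODE M21, the shortest transcript at the best principal-isoform rank, which matched 86 of 86 members and 98.6% of all symbols. Members and gene lists were chosen with earlier results of these data known. Genes were named by level per kb, by the 3 highest and 3 lowest ratios per comparison among members at 5 CPM, and as members outside the common direction, X-linked members, stalk proteins, Rpsa, paralogues, nearest profiles and the most abundant genes of each list; Rps6, Rpl5, Rpl11, Rpl13a, Rpl15 and Rpl27a were added after their values were seen. Marker lists not described elsewhere had these median log2 ratios in PKO against WT, PKO-NF1 against NF1, NF1 against WT and PKO-NF1 against PKO: endothelium 0.17, 0.39, -1.62 and -1.28, fibroblast 0.20, 0.39, 0.05 and 0.35, perineurium -0.14, 0.03, -0.61 and -0.66, and macrophage 0.41, 0.80, -0.28 and -0.03. In the same order the neuron list, with 2 tested genes, had 0.55, 2.3, -1.32 and 0.43. The T and B cell list, with 1 tested gene, had 1.84, 1.14, 0.37 and -0.33. Results for some genes are not reported here.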

Additional observations from a re-analysis of the deposited data

Results flagged for a closer look

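Both Nf1 pairs differ by the Nf1 allele and Dhh Cre and share no library, and the members lay on opposite sides of no change in them. The median log2 ratio was 1.07 in NF1 against WT and -0.53 in PKO-NF1 against PKO. In all, 64 members were higher in the first pair and lower in the second, each with a counting interval that excluded 1. The same count was not made over all rows, so the 64 describes the members alone. With 1 library per genotype the difference between the pairs was not tested. Among members at an end of either comparison, Rpl35 had 1.66 in NF1 against WT and -0.82 in PKO-NF1 against PKO, Rpl36 had 1.15 and -0.83, and Rps24 had 1.76 and -0.73. Rps27l had 1.86 and -0.53, Rps28 had 0.92 and -0.82, and Rps29 had 0.37 and -0.72. Rplp0, at 1.11 and 0.58, and Rpl4, at 0.94 and 0.72, were above no change in both.

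Pseudogene rows that the rule leaves out carried counts. The highest count in a library was 16809 for Rpl14-ps1, 177 for Rps15a-ps4, 164 for Rps15a-ps6 and 125 for Rps19-ps3. Rps15a-ps4 had 177 counts in PKO-NF1, 17 in NF1, 103 in PKO and 25 in WT.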

How the results depend on the processing

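No paired analysis was possible because each genotype has 1 library, and leaving out a library leaves the additive model no residual degree of freedom. In this paragraph values are for PKO against WT, PKO-NF1 against NF1, NF1 against WT and PKO-NF1 against PKO, in that order, unless named. No median changed sign under any alternative run. Scaling by total counts gave medians of 2.03, 0.68, 0.86 and -0.45, with 11 members higher in PKO-NF1 against NF1, and 25 higher and 1 lower in NF1 against WT; the median of all rows moved to -0.54, -0.18, -0.22 and 0.07. TMM without ribosomal protein rows gave 2.31, 0.78, 1.02 and -0.47, with all rows in PKO against WT at -0.26. TMM without muscle rows gave 0.98 and 39 higher in PKO-NF1 against NF1, and 0.94 and 33 higher in NF1 against WT. A 5 CPM filter, or canonical members alone, gave 2.56 in PKO against WT; without paralogues 0 members were lower there or in PKO-NF1 against NF1. Removing the length and GC trend gave 1.45, 0.42, 0.59 and -0.61, with 5 higher and 2 lower in PKO-NF1 against NF1, 5 higher in NF1 against WT and 17 lower in PKO-NF1 against PKO. At 1.5-fold, 68 were higher and 2 lower in PKO-NF1 against NF1, 77 higher and 1 lower in NF1 against WT, and 2 higher and 34 lower in PKO-NF1 against PKO. Shares of all rows were not counted at 1.5-fold or under the other scalings, so those counts, here and above, describe the members alone. Shares with pseudogene rows were 12.3% in PKO-NF1, 7.47% in NF1, 15.8% in PKO and 4.08% in WT; canonical members alone took 12.2%, 7.35%, 15.6% and 4.02%; without muscle counts NF1 had 8.16%. DESeq2 called 62 members at the P2ry14 term, against 0 by edgeR. The cause of these shifts was not tested. Counts were deep for most members, and counting error limits Rpl30, Rpl34, Rps27 and Rpl39l.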

Other observations

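Some markers of mast cells, which gather in nerve tumours of NF1, were higher in the libraries with P2RY14-/-. Mcpt4, a mast cell protease, had 252 CPM in PKO-NF1 and 86.6 CPM in NF1, and 348 CPM in PKO and 105 CPM in WT. Of 4 mast cell markers, 3 were at least 2-fold higher in PKO-NF1 against NF1 and 2 in PKO against WT, beside 7.9% and 10% of all rows. Kit, which mast cells share with other cells, had 23.1 CPM in PKO-NF1 and 16.3 CPM in NF1, and 26 CPM in PKO and 22 CPM in WT. Adipocyte markers moved with them, with 4 of 5 higher in PKO-NF1 against NF1 and 2 of 5 in PKO against WT, and their part in the result was not tested. Alas2, the haem synthesis enzyme of red cell precursors, had 126 CPM in PKO-NF1, 4.57 in NF1, 10.9 in PKO and 14.9 in WT. The other 3 red cell markers, the haemoglobin genes Hba-a1, Hbb-bs and Hbb-bt, had 0 counts in every library. Annotation and treatment of reads with several matches were not stated, so these 0 counts cannot be read as absence of red cell RNA.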
